A study of Mus musculus with 4 samples.

Results

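The genes described here are 38 genes that carry glucose through glycolysis to lactate, into the pyruvate dehydrogenase reaction, and into and out of glycogen. They were chosen by name as transporters, enzymes and enzyme regulators of these routes, with no measured value in the rule. Earlier results of these data were, however, known when these genes and the lists below were chosen. All 38 were found among the 23735 loci of an RNA-seq table. The table symbol Pkm stands for pyruvate kinase M (Pkm2 in the list), and a value for the whole locus does not separate its splice forms. The RNA came from peritoneal macrophages of C57BL/6 mice aged 6 weeks, drawn into the cavity by 3% thioglycolate injected 3 days earlier and then kept in culture medium with serum. The Ch25h_WT group has the genotype ApoE-/-/Ch25h+/+ and the Ch25h_KO group ApoE-/-/Ch25h-/-, so both groups are labelled as lacking apolipoprotein E and the comparison concerns Ch25h, which encodes cholesterol 25-hydroxylase. Each group has 2 libraries, drawn in some way from 12 mice per group, and which mice went into which library is not given in the sources used here. Every mean ± SD below is over n = 2 libraries, and each p-value reflects no more than the spread of these libraries, some of which may be technical.

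Glycolysis splits glucose into pyruvate in the cytosol, and lactate dehydrogenase with a lactate carrier removes the pyruvate as lactate, which restores the NAD+ that glycolysis needs. Pyruvate dehydrogenase instead commits pyruvate to the mitochondrial TCA cycle, and its kinases switch that enzyme off. Inflammatory stimulation of macrophages is known to raise glucose use and lactate output, many of the enzymes are induced by the hypoxia-inducible factor HIF-1, and glycogen is a small store that feeds the same hexose phosphate pool.

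The values are FPKM (fragments relative to transcript length and to the mapped fragments of the library), so levels can be set side by side between genes. The depth implied by the smallest values was 9640000 to 12500000 fragments per library. Ch25h itself stood at 63.3 and 65.3 FPKM in Ch25h_WT, against 4.25 and 5.53 FPKM in Ch25h_KO. Apoe was 614 and 610 against 3683 and 3373 FPKM, although all 4 libraries are labelled ApoE-/-, so a further difference between the groups at Apoe cannot be told apart from the Ch25h genotype. Of 8 macrophage markers 0 were under 1 FPKM in the 4 libraries, with Emr1, a defining surface protein of mouse macrophages, at 418 and 425 FPKM in Ch25h_WT against 381 and 388 FPKM in Ch25h_KO, Csf1r at 306 and 316 against 274 and 291 FPKM, and Cd14 at 5178 and 5288 against 6870 and 6751 FPKM. At unadjusted p under 0.05, 2 of the 8 were higher in Ch25h_KO and 0 lower, against 9.38% and 11.5% of all tested loci. Whatever the p, 6 of the 8 had a lower and 2 a higher level in Ch25h_KO, with a median log2 change of -0.029.

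Of the 38 genes, 36 had a mean of at least 1 FPKM and were tested, and 2 fell in the Ch25h_KO libraries, Tpi1 and Pfkl (limma on log2(FPKM + 1), Benjamini-Hochberg adjusted p under 0.05 over 10074 loci). By the same rule 0.437% of all tested loci were called in either direction with 0.208% on the lower and 0.228% on the higher side, where 0 of the 36 genes were called. At unadjusted p under 0.05, 14 of the 36 were lower and 4 were higher, against 11.5% and 9.38% of all tested loci. The median log2 change of the 36 was -0.13, where that of all tested loci was -0.014. Among the 748 tested loci that averaged 100 FPKM or more, 11.6% were lower at unadjusted p under 0.05 and 19% were higher, and 12 of the pathway genes are in that range, of which 7 were lower and 2 higher. In 23 of the 36 genes both Ch25h_KO libraries lay below both Ch25h_WT libraries, against 30.3% of all tested loci, and in 7 both lay above, against 23.4%. In such bulk samples, fewer cells of a type and less RNA per cell cannot be told apart.

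**Figure D1:**
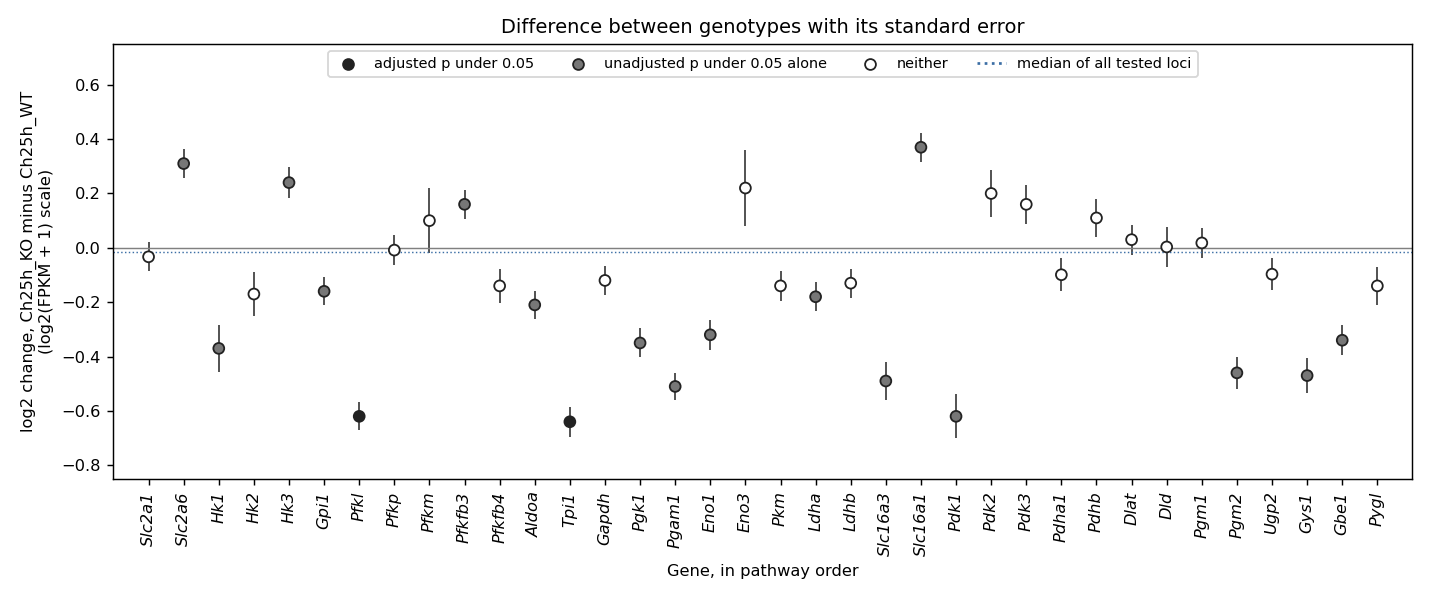
Log2 change of each of the 36 tested genes (vertical axis, Ch25h_KO minus Ch25h_WT, on the log2(FPKM + 1) scale) in pathway order, with bars for the standard error from limma and the fill for the test passed. Tpi1 and Pfkl are the black points, at -0.64 and -0.62, and Slc16a1 is the highest point, at 0.37.

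**Figure D2:**
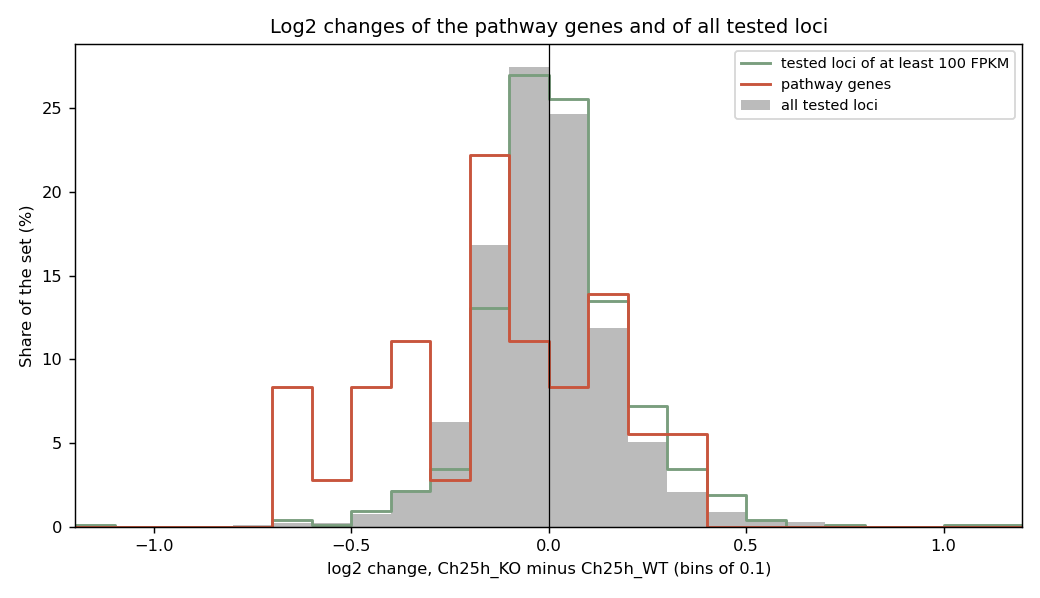
Share of each set (vertical axis, %) in bins of 0.1 of the log2 change between genotypes (horizontal axis), for the 36 pathway genes, all 10074 tested loci, and the 748 loci of at least 100 FPKM. The pathway genes lie further to the left, with a median of -0.13, and loci beyond the axis limits are not drawn.

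Promoters of 4 genes are printed to let the letters be set beside the differences, namely a gene that fell (Pfkl), another enzyme that was lower at unadjusted p (Pgk1), and both lactate carriers, which lay on opposite sides. Each is the stretch of 150 bases just before the RefSeq start on GRCm38.p6 (a later build than the mm9 of the files), 5′ to 3′ on the strand of the gene, which is chr10:78009808-78009957 minus for Pfkl, chrX:106186950-106187099 plus for Pgk1, chr11:120948917-120949066 plus for Slc16a3 and chr3:104638514-104638663 plus for Slc16a1. Capitals mark the core letters of a hypoxia response element, ACGTG or GCGTG, on either strand (read as CACGT or CACGC on the other).
Pfkl: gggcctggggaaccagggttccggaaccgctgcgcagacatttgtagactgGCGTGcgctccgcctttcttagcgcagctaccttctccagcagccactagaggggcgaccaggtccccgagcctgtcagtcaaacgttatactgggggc
Pgk1: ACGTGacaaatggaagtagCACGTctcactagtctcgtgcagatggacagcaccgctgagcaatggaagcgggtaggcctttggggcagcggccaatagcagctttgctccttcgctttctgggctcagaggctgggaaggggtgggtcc
Slc16a3: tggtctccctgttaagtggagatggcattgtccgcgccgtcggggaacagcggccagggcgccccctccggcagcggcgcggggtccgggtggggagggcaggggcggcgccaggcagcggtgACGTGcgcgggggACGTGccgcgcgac
Slc16a1: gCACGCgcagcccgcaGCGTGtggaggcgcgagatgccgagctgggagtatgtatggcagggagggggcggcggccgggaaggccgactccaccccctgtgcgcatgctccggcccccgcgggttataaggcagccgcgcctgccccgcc
Both lactate carriers hold the letters 2 times in these 150 bases, Pgk1 also 2 times, and Pfkl 1 time, 99 bases before the start.

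In the whole window of 250 bases before the start, 31 of the 37 genes with a RefSeq window (83.8%) held ACGTG or GCGTG in at least 1 window, against 63.2% of the 7585 tested genes with a window and 41.5% of all 27025 genes. ACGTG alone was in 51.4% of the 37 genes, 26.5% of tested genes and 18.5% of all genes. Among the pathway genes the letters were present in 10 of the 14 genes lower at unadjusted p under 0.05 and in 21 of the other 23. Tpi1, Gpi1, Gys1 and Gbe1, which were among the lower genes, held neither motif in that window. The sequence ACGTG also overlaps the palindrome CACGTG of other factors, and such matches are letters in a window, not known sites.

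Of the glucose carriers, Slc2a1 had groups of similar level and Slc2a6 was higher in Ch25h_KO at unadjusted p. Slc2a1, which encodes the main glucose carrier GLUT1, was 122 and 118 FPKM in Ch25h_WT and 116 and 118 FPKM in Ch25h_KO. Before rounding, both Ch25h_KO libraries lay slightly below both Ch25h_WT libraries, with a log2 change of -0.033 (SE 0.053). Slc2a6, which encodes the lysosomal hexose carrier GLUT6, was 118 and 117 against 144 and 147 FPKM. Its log2 change was 0.31 (SE 0.0521, unadjusted p = 0.0025, limma adjusted p = 0.1), and both Ch25h_KO libraries lay above both Ch25h_WT libraries. The share of Slc2a6 in the summed level of the 3 carriers was 49 and 49.5% in Ch25h_WT and 55.1 and 55.3% in Ch25h_KO. Slc2a3, which encodes the high-affinity carrier GLUT3, was at 0.814 to 0.92 FPKM, or about 50 to 72 fragments per library, and was not tested.

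Of the hexokinases, which trap glucose as glucose 6-phosphate, Hk1 and Hk3 lay on opposite sides. Hk1, a form bound to mitochondria, was 56.3 and 55.7 FPKM in Ch25h_WT and 39.8 and 46.3 FPKM in Ch25h_KO (log2 change -0.37, SE 0.0867, unadjusted p = 0.0088, limma adjusted p = 0.128). Its Ch25h_KO libraries differed more from each other than its Ch25h_WT libraries did. Hk3, the form typical of myeloid cells, was 69.1 and 67.5 against 79 and 83.3 FPKM (log2 change 0.24, SE 0.0575, unadjusted p = 0.0093, limma adjusted p = 0.131). Hk2, the inducible form, was 25.7 and 25.1 against 21 and 24 FPKM and had an unadjusted p of 0.09 with limma. Summed, the 3 hexokinases were 151 and 148 FPKM in Ch25h_WT and 140 and 154 FPKM in Ch25h_KO, so the sums overlapped while the share of Hk3 was 45.7 and 45.5% against 56.5 and 54.2%. Gpi1, which converts glucose 6-phosphate to fructose 6-phosphate, was 127 and 125 against 113 and 113 FPKM (log2 change -0.16, SE 0.0515, unadjusted p = 0.031, limma adjusted p = 0.2).

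Phosphofructokinase, the committed and most regulated step, held a gene that fell. Pfkl, the liver-type subunit and the main form here, was 87.1 and 85 FPKM in Ch25h_WT and 55.9 and 55.8 FPKM in Ch25h_KO. The replicates lay within 3 FPKM of each other and the groups far apart. The mean was 1.54 times as high in Ch25h_WT as in Ch25h_KO, and the log2 change was -0.62 (SE 0.0521, adjusted p = 0.035 with limma). Pfkp, the platelet-type subunit, was 38.1 and 38.4 against 37.2 and 38.9 FPKM, with overlapping groups and a log2 change of -0.0084 (SE 0.055). The level of Pfkl against Pfkp was thus 2.29 and 2.21 in Ch25h_WT and 1.5 and 1.43 in Ch25h_KO. Pfkm, the muscle-type subunit, was near the limit of the filter at 0.964 to 1.47 FPKM, about 28 to 43 fragments, and the groups overlapped.

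The enzymes that set fructose 2,6-bisphosphate, a strong activator of phosphofructokinase, did not pass, and the main one lay on the higher side. Pfkfb3, whose kinase activity makes that activator, was 194 and 195 FPKM in Ch25h_WT and 213 and 222 FPKM in Ch25h_KO (log2 change 0.16, SE 0.0543, unadjusted p = 0.033, limma adjusted p = 0.205). Pfkfb4, a related form, was far lower, at 5.63 and 5.84 against 4.9 and 5.33 FPKM, with an unadjusted p of 0.078 with limma. Pfkfb3 made up 97.1 to 97.8% of the summed level of both genes in each library.

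From aldolase to pyruvate kinase, the main gene of every step had a lower mean in Ch25h_KO, with differences of very unequal size. Tpi1, which interconverts both triose phosphates and is present as a single gene for its step, was 195 and 187 FPKM in Ch25h_WT and 120 and 124 FPKM in Ch25h_KO. It was 1.57 times as high in Ch25h_WT, and its log2 change was -0.64 (SE 0.0556, adjusted p = 0.035 with limma). Neither Tpi1 nor Pfkl passed with any 1 library left out (limma adjusted p = 0.206 to 0.255), with a pseudocount of 0.1 (0.072 and 0.065) or with no filter on low values (0.069 and 0.063). Among loci of at least 5 FPKM, 9 of 31 tested genes of these routes passed, against 2.42% of loci, and all but Slc16a1 were lower. With limma's trend and robust options 18 of 36 passed (14 lower and 4 higher), against 7.8% of loci.

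Pgam1, the phosphoglycerate mutase, was 266 and 263 FPKM in Ch25h_WT and 186 and 186 FPKM in Ch25h_KO, just short of the threshold (log2 change -0.51, SE 0.0512, limma adjusted p = 0.052). Pgk1, the first ATP-forming enzyme of the route, was 303 and 311 against 243 and 237 FPKM (log2 change -0.35, SE 0.0532, unadjusted p = 0.0015, limma adjusted p = 0.093). Eno1, the enolase of most tissues, was 325 and 338 against 263 and 268 FPKM (log2 change -0.32, SE 0.0549, unadjusted p = 0.0027, limma adjusted p = 0.102). In these 3 genes the libraries of a group stood close together and the groups did not overlap.

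Aldoa, which cleaves fructose 1,6-bisphosphate, was 755 and 735 FPKM in Ch25h_WT and 649 and 641 FPKM in Ch25h_KO (log2 change -0.21, SE 0.0528, unadjusted p = 0.013, limma adjusted p = 0.146). Gapdh, which makes the NADH of glycolysis and often serves as a reference gene, was 728 and 731 against 663 and 682 FPKM, with an unadjusted p of 0.079 with limma. Pkm, whose product makes pyruvate and ATP, was 849 and 822 against 751 and 770 FPKM, with an unadjusted p of 0.057. These abundant genes thus differed by 0.922 to 0.866 as a ratio of means, while Tpi1 stood at 0.639. Set against Gapdh within each library, Tpi1 was 0.268 and 0.256 in Ch25h_WT and 0.182 and 0.181 in Ch25h_KO, a comparison that no scaling between libraries can move. Aldoc and Eno3, the brain-type aldolase and the muscle-type enolase, were at 0.48 to 0.81 and 0.845 to 1.61 FPKM, about 15 to 24 fragments, and their groups overlapped. Several of these genes (Gapdh, Ldha, Pgam1, Pgk1, Tpi1 and Eno1) have near-identical processed copies in the mouse genome, so their exact levels are uncertain.

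**Figure D3:**
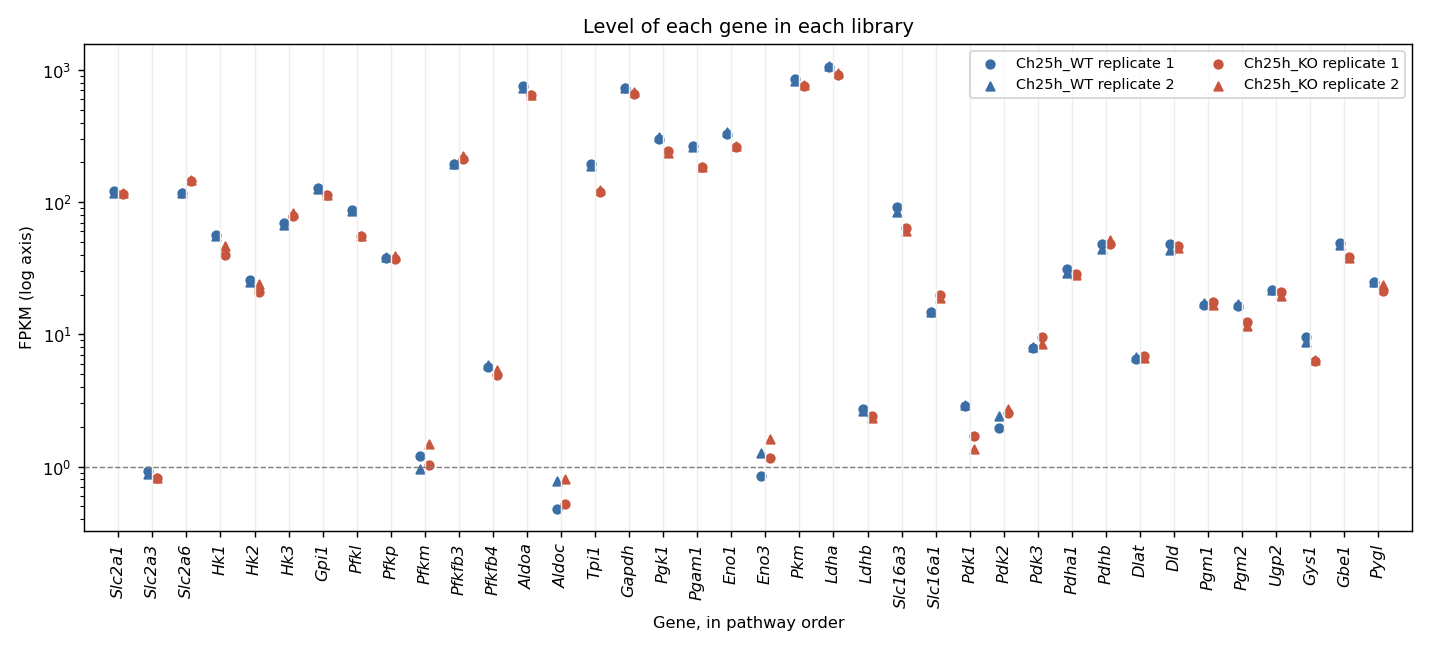
FPKM (vertical log axis) of all 38 genes in pathway order in the 4 libraries, with circles and triangles for replicates 1 and 2 and blue and red for Ch25h_WT and Ch25h_KO. The dashed line is the filter of 1 FPKM, and levels run from under 1 FPKM for Slc2a3 and Aldoc to 1069 FPKM for Ldha.

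At the lactate end, the dehydrogenase was the most abundant gene of the set and both carriers lay on opposite sides. Ldha, the form that favours lactate, was 1059 and 1069 FPKM in Ch25h_WT and 923 and 956 FPKM in Ch25h_KO (log2 change -0.18, SE 0.0535, unadjusted p = 0.022, limma adjusted p = 0.178). Ldhb, the heart-type form, was 2.71 and 2.65 against 2.41 and 2.32 FPKM, and Ldha made up 99.7 to 99.8% of their sum in every library.

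Slc16a3, which encodes the lactate exporter MCT4, was 91.3 and 83.8 FPKM in Ch25h_WT and 64.2 and 60 FPKM in Ch25h_KO (log2 change -0.49, SE 0.0717, unadjusted p = 0.0014, limma adjusted p = 0.088). Slc16a1, which encodes MCT1, a carrier that works in both directions, was 14.7 and 14.7 against 19.7 and 18.9 FPKM (log2 change 0.37, SE 0.0542, unadjusted p = 0.0013, limma adjusted p = 0.088). The ratio of Slc16a3 to Slc16a1 within a library was 6.2 and 5.71 in Ch25h_WT and 3.26 and 3.18 in Ch25h_KO, with Slc16a3 the higher of the pair in all 4 libraries. The promoters printed above hold 2 matches of ACGTG or GCGTG for each carrier, and the whole window of 250 bases holds 2 for Slc16a3 and 4 for Slc16a1, a CACGTG palindrome being counted on both strands.

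Among the 7 pyruvate dehydrogenase genes, 1 kinase was lower at unadjusted p under 0.05, against 11.5% of all tested loci. No subunit of the complex was lower by that rule. Pdk1, a kinase that shuts the complex off and a known HIF-1 target, was 2.85 and 2.93 FPKM in Ch25h_WT and 1.7 and 1.37 FPKM in Ch25h_KO, about 68 to 185 fragments. Its log2 change was -0.62 (SE 0.0805, unadjusted p = 0.0008, limma adjusted p = 0.078), and the mean in Ch25h_WT was 1.88 times that in Ch25h_KO, the widest ratio of means among the 38 genes. Pdk3, the most abundant kinase here, was 7.89 and 8.01 against 9.57 and 8.48 FPKM, and Pdk2 was 1.96 and 2.4 against 2.54 and 2.72 FPKM. Both had groups that did not overlap and unadjusted p of 0.08 and 0.077 with limma. The share of Pdk1 in the summed kinases was 22.4 and 21.9% in Ch25h_WT and 12.3 and 10.9% in Ch25h_KO, while the sums overlapped, at 12.7 and 13.3 against 13.8 and 12.6 FPKM.

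Of the complex itself, Pdha1 (the catalytic E1 alpha subunit) was 31.4 and 29.2 against 28.4 and 28 FPKM and Pdhb (E1 beta) was 48.4 and 44.5 against 48.6 and 52 FPKM. Dlat, the acetyltransferase core, was 6.46 to 6.89 FPKM and Dld, the dehydrogenase subunit shared with other mitochondrial complexes, was 43.3 to 48 FPKM, each with overlapping groups. The log2 changes of these 4 genes lay between -0.099 and 0.11 with SE of 0.0558 to 0.0721, and the smallest unadjusted p was 0.168 with limma.

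Of the 6 glycogen genes 3 were lower at unadjusted p under 0.05, against 11.5% of all tested loci. These were Gys1, Gbe1 and the table symbol Pgm2, and none of the 6 passed the adjusted threshold. Gys1, the glycogen synthase of most tissues, was 9.56 and 8.72 FPKM in Ch25h_WT and 6.28 and 6.37 FPKM in Ch25h_KO (log2 change -0.47, SE 0.0645, unadjusted p = 0.001, limma adjusted p = 0.078). Gbe1, the branching enzyme, was 49.5 and 47.6 against 38.3 and 37.8 FPKM (log2 change -0.34, SE 0.0546, unadjusted p = 0.0019, limma adjusted p = 0.097). For both genes the libraries of a group stood close together and the groups did not overlap.

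Phosphoglucomutase links glucose 6-phosphate with the glucose 1-phosphate of glycogen. The table symbol Pgm2 is the gene that the RefSeq table of GRCm38.p6 calls Pgm1, judged by the 12 of 12 neighbouring loci that lie on chromosome 4, and the table symbol Pgm1 is the gene it now calls Pgm2. Under the table symbols, Pgm2 was 16.4 and 17.1 FPKM in Ch25h_WT and 12.3 and 11.6 FPKM in Ch25h_KO (log2 change -0.46, SE 0.0594, unadjusted p = 0.0008, limma adjusted p = 0.078). Pgm1 was 16.7 and 17.2 against 17.5 and 16.8 FPKM, with overlapping groups and a log2 change of 0.018 (SE 0.0562). Ugp2, which makes the UDP-glucose that glycogen synthase uses, was 21.7 and 21.6 against 20.9 and 19.5 FPKM and had an unadjusted p of 0.168 with limma. Pygl, the liver-type phosphorylase that breaks glycogen down, was 24.8 and 25.1 against 21.3 and 23.7 FPKM (unadjusted p = 0.104 with limma). The level of Gys1 against Pygl within a library was 0.386 and 0.348 in Ch25h_WT and 0.295 and 0.268 in Ch25h_KO.

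Read along the route as the summed FPKM of each of 21 steps, the difference was uneven. The sum of transport was higher in both Ch25h_KO libraries (241 and 236 against 261 and 266 FPKM). Among its carriers only Slc2a6 was higher (118 and 117 against 144 and 147 FPKM), while Slc2a1 and Slc2a3 were not. The sum of the Pfkfb genes was also higher in both (199 and 201 against 218 and 227 FPKM). The sums of hexokinase, the dehydrogenase kinases and the dehydrogenase complex overlapped. The sum of phosphofructokinase was 24.2% lower in Ch25h_KO, that of triose phosphate isomerase 36.1% lower, that of phosphoglycerate mutase 29.7% lower, and those of glyceraldehyde phosphate dehydrogenase and pyruvate kinase 7.84% and 9.04% lower. The sums are given as descriptions, with no test.

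**Figure D4:**
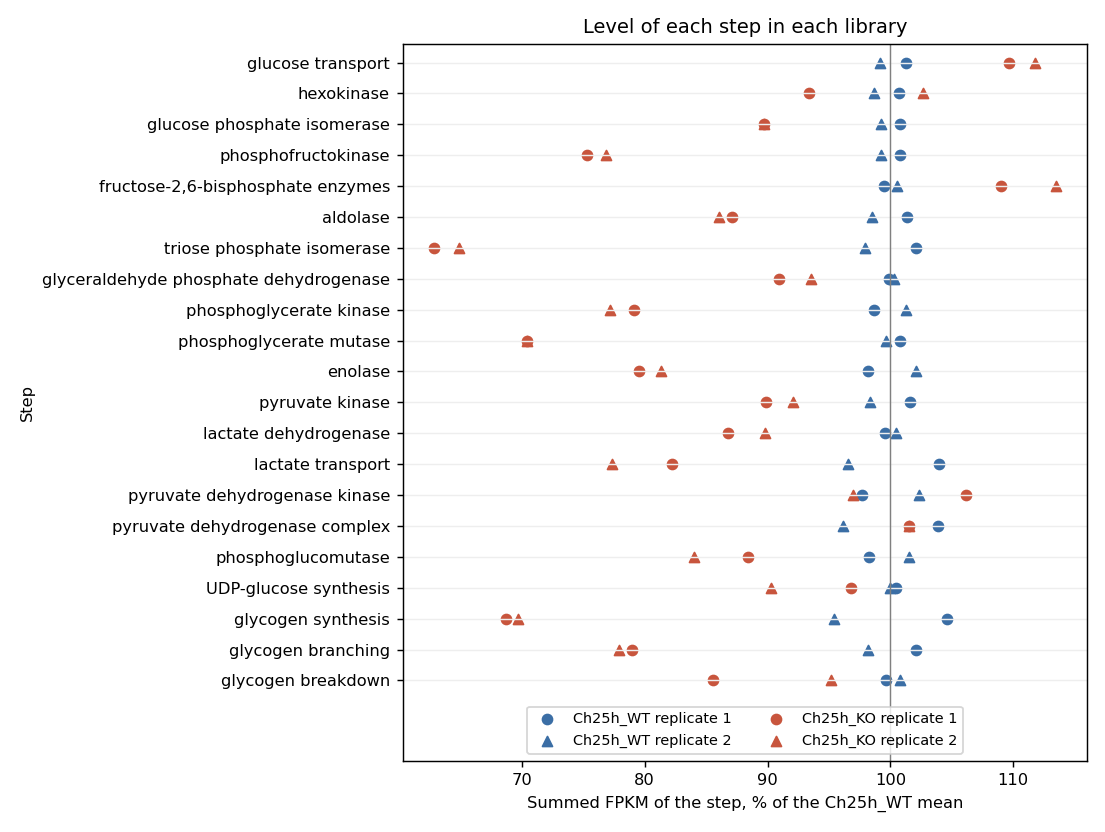
Summed FPKM of the genes of each step, as a percentage of the Ch25h_WT mean (horizontal axis), in the 4 libraries, with steps from glucose transport at the top to glycogen breakdown at the bottom. Both Ch25h_KO libraries of triose phosphate isomerase, glycogen synthesis and phosphoglycerate mutase lie farthest left, and glucose transport and the Pfkfb step lie right of 100.

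Within 9 of the 11 steps that hold more than 1 gene, the share of the leading gene did not overlap between groups. The exceptions were aldolase and lactate dehydrogenase, which a single gene almost fills. Enolase, counted among the 9, is almost filled by 1 gene too, and the share of Eno1 shifted by only -0.202 points. The shift of Pfkfb3 in its step was also small, at 0.573 points. For comparison, the levels of all tested loci, which are not shares, lay apart in 30.3% (lower) and 23.4% (higher). No such percentage was computed for shares. The count of 9 is a description of shares within a library, which do not depend on scaling between libraries. The widest shifts were those of Pdk1 (by -10.6 points), Pfkl (-9.93), Hk3 (9.74), Slc16a3 (-9.32) and, among the mutases, the table symbol Pgm2 (-8.7).

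**Figure D5:**
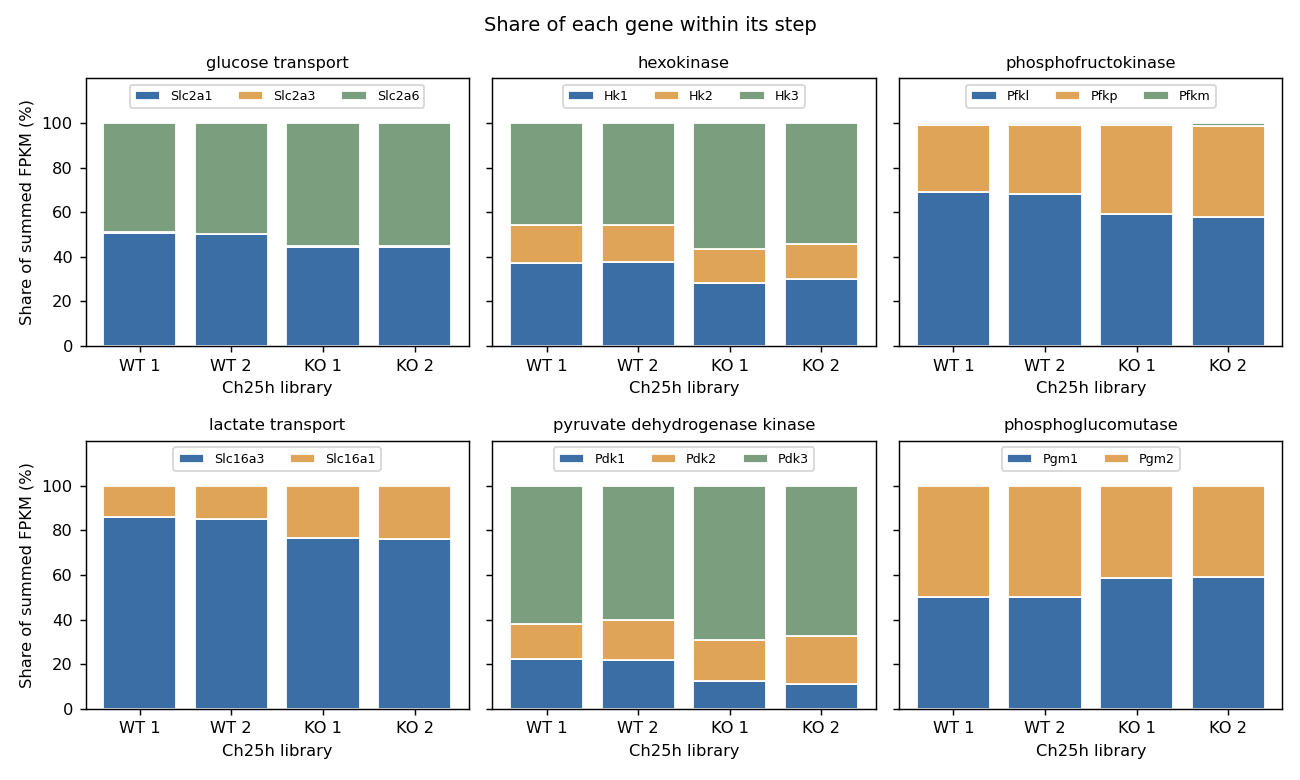
Share of each gene in the summed FPKM of its step (vertical axis, %) in the 4 libraries, for 6 steps. The bars of a group resemble each other and differ between groups, as for Pfkl, at 68.9 and 68.3% in Ch25h_WT and 59.4 and 58% in Ch25h_KO.

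Other genes of the same routes, 75 by name and 39 above the filter, were counted next. None passed the adjusted threshold with limma, 1 was lower and 2 were higher at unadjusted p under 0.05, against 11.5% and 9.38% of all tested loci, and the median log2 change was -0.023. The lower one was Gyg, the glycogenin that primes glycogen, at 50.9 and 53.4 against 45.6 and 45 FPKM. Among the higher ones was Pck2, the mitochondrial phosphoenolpyruvate carboxykinase, at 19.7 and 19.1 against 24.4 and 24.4 FPKM. Genes of the HIF pathway and of the response to hypoxia, outside the enzymes, were also counted. Of 22 tested, 3 fell (Egln3, Bnip3 and Selenbp1), against 0.208% of all tested loci on the lower side. At unadjusted p under 0.05, 14 were lower and 2 higher, against 11.5% and 9.38% of all tested loci, and the median log2 change was -0.24. Egln3, a prolyl hydroxylase that marks HIF for breakdown, was 22.8 and 23 FPKM in Ch25h_WT and 10.9 and 10.6 FPKM in Ch25h_KO. Bnip3, a mitophagy receptor, was 23 and 22.4 against 14.5 and 14.6 FPKM. The higher ones were Vegfa, an angiogenic growth factor, at 27.1 and 27 against 33 and 35.4 FPKM, and Ddit4, an inhibitor of mTORC1 signalling, at 30.6 and 27.7 against 37.3 and 38.1 FPKM. Selenbp1, a selenium-binding protein whose place in this list is less well established than that of the others, was low, at 3.11 and 3.16 against 1.65 and 1.64 FPKM. Hif1a, which encodes the oxygen-regulated subunit of HIF-1, was 124 and 119 against 130 and 124 FPKM (unadjusted p = 0.33 with limma).

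Markers of several other cell types differed between the groups, and their part in these results was not tested. The summed level of 10 neutrophil markers was 250 and 269 FPKM in Ch25h_WT and 362 and 356 FPKM in Ch25h_KO, carried by Lcn2 and S100a8, with the granule genes Mpo, Elane, Ngp and Ltf at 0 to 0.292 FPKM. At unadjusted p under 0.05 the 3 tested neutrophil markers were higher, against 9.38% of all tested loci. Camp (0.906 and 1.36 against 0.88 and 0.471 FPKM) and Cxcr2 (0.507 and 0.665 against 0.492 and 0.428 FPKM) were not higher. Hk3, typical of myeloid cells, was higher in the same libraries, and its relation to these markers was not tested. The sum of 5 B cell markers was 317 and 321 against 285 and 300 FPKM. Of these 5, 4 had a lower and 1 a higher level, and 1 was lower at unadjusted p under 0.05, against 11.5% of all tested loci. The sum of 9 mast cell and basophil markers was 381 and 393 against 369 and 386 FPKM, and of its 7 tested genes 5 were lower and 1 (Hdc) higher at unadjusted p under 0.05, against 11.5% and 9.38% of all tested loci. That of 7 erythroid markers was 39.6 and 45.7 against 61.4 and 64 FPKM, with Epb4.2 at 0 in all 4 libraries. The sum of 6 markers of resident large peritoneal macrophages was 724 and 741 against 787 and 818 FPKM. Whatever the p, 4 of these 6 had a higher and 2 a lower level in Ch25h_KO. At unadjusted p under 0.05, 2 were higher and 0 lower, against 9.38% and 11.5% of all tested loci. Markers of T and NK cells, eosinophils, and mesothelial cells and fibroblasts summed to at most 2.9 FPKM in any library.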

How the data were processed

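RNA-seq values of 4 libraries were used. Tools listed in the submitters' processing notes are Cufflinks 2.2.1, TopHat2 2.0.14 and bcl2fastq, with the mouse build mm9. No annotation, strand setting or filter is given in the sources used here. In the deposited table there is 1 value per locus and library, which the authors made and whose range and decimals fit FPKM (the header names no unit), so no count test was run. The 24192 lines were joined into 23735 loci, and 0 sample columns were left out. Overlapping genes cannot be told apart without strand.

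Relative depths (1, 0.8, 0.824 and 0.77) came from the most common ratio of values under 0.5 FPKM, and 97.5% of 3355 loci under 0.2 FPKM then held whole fragments in the 4 libraries (tolerance 0.01 fragments, widened in proportion to larger counts). Fragment numbers per gene use the longest GENCODE vM21 transcript and are approximate. Low-count loci had a mean chi-square of 1.16 and 1.17 within groups and of 1.28 to 1.33 between them, where counting noise alone gives about 1. The libraries were counted as separate, as labelled, and these values do not show whether they are separate preparations.

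Log2(FPKM + 1) was tested with limma 3.58.1 in R 4.3.3 for loci that averaged 1 FPKM or more, with genotype as the term and Benjamini-Hochberg adjustment over all 10074 loci. Changes on this scale understate those of low genes. The test was checked on simulated data. The genes and lists, and the rule that all 38 are named with full statistics for those at unadjusted p under 0.05, without overlap and with at least 5 FPKM in the higher group, were chosen with earlier results of these data known. The same holds for the range of 100 FPKM. Pdk1, below 5 FPKM, Hif1a, Vegfa, Ddit4 and the marker genes were named after their values were seen. From the other genes of the routes at most 5 per direction were named, and from the hypoxia list those past the adjusted threshold. Promoters came from the RefSeq table of GRCm38.p6, matched by symbol. Alternatives covered the pseudocount, the filter, scaling, the model of the spread, the replicate block and each library left out.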

Additional observations from a re-analysis of the deposited data

How the results depend on the processing

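With 2 libraries per group the number of calls moved with the settings. The 18 genes at unadjusted p under 0.05 kept their sign in every setting that tested them. Most of that was fixed beforehand, as their groups do not overlap and leaving out a library then cannot turn the sign. The filter, the trend and robust options and the replicate block leave the log2 change itself as it is. The kept sign is therefore no measure of how stable these genes are. The count of all loci called, 44, was 18 with no filter, 175 at 5 FPKM, 786 with trend and robust options, 6 with the replicate block and 13 to 21 with a library left out. At unadjusted p the 2107 loci became 1319 to 1703 with a library left out. Of the pathway genes, 2 were called, against 0 with a pseudocount of 0.1, 0 with no filter, 9 at 5 FPKM, 18 with trend and robust options, 0 with the replicate block and 0 to 0 with a library left out. The libraries share only a number (the deviations of same-numbered libraries correlated at 0.0123 across 10074 loci), so the block is no pairing. The median of -0.13 was -0.17 with TPM scaling, -0.16 with TPM scaling without Saa3, and -0.15 to -0.10 with a library left out. Saa3 holds 16.3 to 17.2% of the summed FPKM. Genes near 0 changed sign, none of them called. Pfkp was 0.0077 with median of ratios scaling and -0.04 to 0.023 with a library left out. Pfkm was -0.037 to 0.25 with a library left out. Dlat was -0.0049 with TPM scaling. Dld was -0.036 with TPM scaling, -0.022 with TPM scaling without Saa3, and -0.069 to 0.076 with a library left out. Pgm1 was -0.021 and -0.0067 under both TPM scalings and -0.013 to 0.048 with a library left out. The cause of these moves was not tested. Precision is limited for genes near 1 FPKM, where a value rests on few fragments, such as 15 to 24 for Aldoc and Eno3.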
